A study of Mus musculus with 30 samples.

Results

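The genes described here are those of MHC class II antigen presentation in mouse microglia. They were taken by symbol from a list of 10 genes, which was set with earlier results of these data known. The list holds the classical chains H2-Aa, H2-Ab1 and H2-Eb1, the invariant chain Cd74 and the transactivator Ciita. It also holds the peptide editor genes H2-DMa, H2-DMb1 and H2-DMb2, and the editor's inhibitor genes H2-Oa and H2-Ob. Of the 10 genes, 9 had 1 row each among the 14225 rows of the expression table, and Ciita had none and was left out. The values are TPM, transcript abundances scaled to transcript length and library total, in RNA of microglia that were taken from whole mouse brain with CD11B beads. C57BL/6J dams were given saline ("Saline") or the viral RNA mimic poly(I:C), which activates the maternal immune system ("MIA", maternal immune activation), and their offspring were taken at E17, P7, P20 and P60. At P60, offspring of each kind of dam had received either control chow throughout (CTRL) or, after weaning, chow that held PLX5622 and then control chow again (MG-REP). PLX5622 inhibits CSF1R, on which microglia depend for survival, and microglia return once it is withdrawn. This gave 10 groups of 3 libraries: E17 Saline, E17 MIA, P7 Saline, P7 MIA, P20 Saline, P20 MIA, P60 Saline + CTRL, P60 MIA + CTRL, P60 Saline + MG-REP and P60 MIA + MG-REP. A library held 1 litter at E17, 3 pooled brains at P7 and 1 brain at P20 and P60. The methods name offspring of both sexes, and the labels do not give the sex of a library. CD11B is carried by other myeloid cells as well as microglia, and CSF1R is also present on other macrophages, so that neither the beads nor the chow are specific to microglia.

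MHC class II molecules are pairs of an alpha and a beta chain that present peptides from endosomes to CD4+ T cells. The invariant chain fills the peptide groove on the way to the endosome, H2-DM removes its last fragment and edits the peptides, and H2-DO, best known from B cells, binds H2-DM and inhibits it. The genes share a promoter module, the X and Y boxes, on which the RFX and NF-Y complexes assemble and recruit CIITA. Microglia at rest carry little class II and raise it after interferon gamma and in disease, whereas dendritic cells, B cells and the macrophages of the brain's borders carry much more.

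In GRCm38 (the build of mm10), 8 of the 9 measured genes lie within the MHC on chromosome 17, between 34092379 at the start of H2-Oa and 34316674 at the end of H2-Eb1. Promoter sequences of RefSeq (GRCm38.p6) were matched for 7 of the genes. Stretches of 6 of them are shown, since these 6 hold matches to the X and Y boxes before their starts. The stretches run 5′ to 3′ on the strand of the gene, and the capitals mark a match to the X-like pattern CNNNNAAC and, 23 to 26 bases further, to the Y pattern TGATTGG.
H2-Aa, chr17:34287861-34287913, minus strand: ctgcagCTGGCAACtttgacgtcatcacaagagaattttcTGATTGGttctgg
H2-Eb1, chr17:34305767-34305818, plus strand: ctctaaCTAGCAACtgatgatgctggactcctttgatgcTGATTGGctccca
H2-DMb1, chr17:34153088-34153140, plus strand: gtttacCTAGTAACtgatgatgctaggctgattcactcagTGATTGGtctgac
H2-DMb2, chr17:34145117-34145169, plus strand: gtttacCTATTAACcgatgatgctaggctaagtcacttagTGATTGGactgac
H2-Oa, chr17:34092294-34092346, plus strand: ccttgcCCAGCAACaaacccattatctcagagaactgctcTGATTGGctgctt
H2-Ob, chr17:34238809-34238858, plus strand: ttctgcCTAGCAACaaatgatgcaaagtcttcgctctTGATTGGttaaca
The Y match began 45 bases (H2-Oa) to 92 bases (H2-DMb2) before the annotated start. The spacing between both matches was 26 bases in 4 of the genes, 25 in H2-Eb1 and 23 in H2-Ob. The patterns were written from these sequences, so that their presence here is a description. Searched on both strands, the 250 bases before a start held the Y pattern in 7.23% of all 32851 RefSeq promoters, and the pair at this spacing in 37 of them (0.113%). Neither of the 2 starts of H2-DMa held the Y pattern, and so the pair, in this window.

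**Figure D1:**
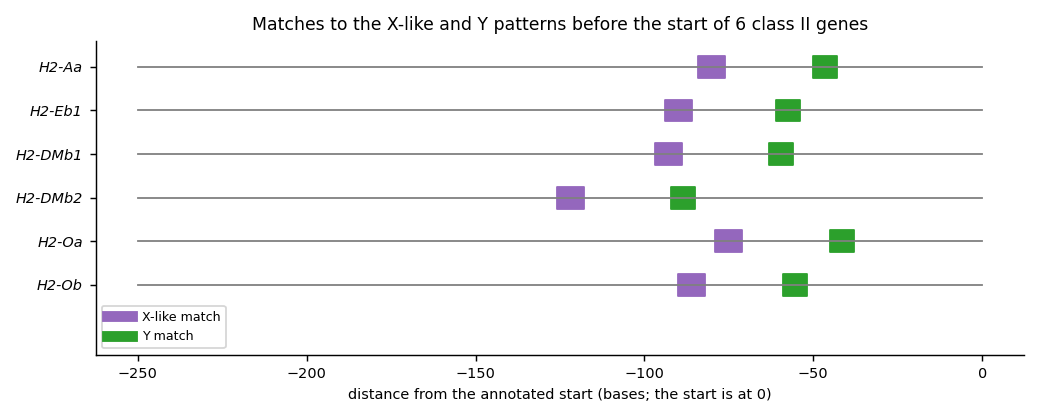
Position of the X-like match (purple) and the Y match (green) in bases before the annotated start for 6 class II genes; the grey line is the window of 250 bases that was searched. In each gene the X-like match lies upstream of the Y match, and both lie farther upstream in H2-DMb2 than in the other 5.

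The libraries held an estimated 8050000 to 12910000 reads each, from the steps between low TPM values. The 8 microglial marker genes fixed for the check of cell identity had rows, and their summed TPM lay between 16514 and 51828 per library. The Saline + MG-REP libraries stood apart at P60: their sum of 6 proliferation genes was 335 to 974 TPM, against 12 to 18.5 in the other P60 libraries, and their microglial sum was 24949 to 28543, against 30124 to 51828. Within that group, library 1 had the highest proliferation sum and the highest border macrophage sum (2168 TPM, against 1170 and 1148), and library 2 a neutrophil sum of 5711 TPM (34.9 and 340.0 in the others). Genes of the Y chromosome summed to 125 TPM or more in every E17 and P7 library except library 2 of P7 MIA (0.1 TPM). They summed to 0.59 TPM or less in every P20 library. Xist, expressed from the inactive X chromosome of females, was at 0.14 to 0.29 TPM in libraries 2 and 3 of both CTRL groups and at 80.1 TPM or more in the other 26 libraries, so that the sexes of the P60 groups were not balanced between CTRL and MG-REP. Calls that were lost when 1 library was left out are named below. Libraries were left out only 1 at a time, so no fit was without both low-Xist libraries of a CTRL group. A fit with log2 Xist as a covariate was also run.

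The classical chains H2-Aa, H2-Ab1 and H2-Eb1, which form the I-A and I-E molecules that carry the peptide, were lowest at E17 and had a higher group mean at each later age. In Saline offspring, H2-Aa was at 20.2, 29.0 and 23.04 TPM at E17, at 50.1, 71.8 and 44.2 at P7, at 128, 254 and 160 at P20, and at 507, 316 and 303 in Saline + CTRL at P60. The libraries of consecutive ages did not overlap at any of these steps, as held upward for 17.1%, 22.4% and 6.71% of all rows. The mean in Saline + CTRL (375 ± 114, SD, n = 3) was 15.6 times that at E17 (24.1 ± 4.53), and in MIA offspring the corresponding ratio was 20.2. H2-Ab1 went from 27.6, 43.3 and 36.0 TPM at E17 to 503, 327 and 278 in Saline + CTRL, a ratio of means of 10.4. H2-Eb1 went from 13.7, 21.8 and 13.4 TPM to 359, 208 and 185, a ratio of 15.4. In 10 of 10 groups the library with the highest H2-Aa also had the highest H2-Ab1 and H2-Eb1. Both H2-Aa and H2-Eb1 were higher relative to H2-Ab1 at later ages. The TPM ratio of H2-Aa to H2-Ab1 was 0.477 to 0.730 at E17 and 0.880 to 1.11 from P20 on, and that of H2-Eb1 to H2-Ab1 was 0.363 to 0.540 at E17 and 0.589 to 0.744 from P20 on. Since the RNA came from a bulk sample, more class II RNA per cell and more cells that carry class II cannot be told apart.

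The step from P7 to P20 was the clearest for the whole pathway. By limma on log2(TPM + 1), with Benjamini-Hochberg adjustment over 14225 rows, 8 of 9 genes rose from P7 to P20 in Saline offspring, where 16.1% of all rows rose and 20.1% fell. The same number rose in MIA offspring, where 13.1% of all rows rose. The 8 genes were the same in both, and the one that did not pass was Cd74. Among the classical chains the log2 differences were 1.66 ± 0.30 (SE) for H2-Aa, 1.48 ± 0.28 for H2-Ab1 and 1.72 ± 0.33 for H2-Eb1 in Saline offspring, with adjusted p from 0.000142 to 0.00032 (limma). In MIA offspring they were 2.11 ± 0.30, 1.80 ± 0.28 and 2.03 ± 0.33, with adjusted p from 7.49e-06 to 4.53e-05 (limma). Each count stayed at 8 without any 1 of the 6 libraries compared, although not always with the same genes (H2-DMb2, below). The median log2 difference of the 9 genes was 1.48 in Saline and 1.64 in MIA offspring, beside −0.02 and −0.09 over all rows. The P7 libraries, except library 2 of P7 MIA, held Y transcripts and the P20 libraries hardly any. At this step a change of age therefore went with a change in the sex of the libraries.

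The steps before and after it were less certain. From E17 to P7, 1 of 9 genes passed in Saline offspring (H2-Aa, 1.15 ± 0.30, adjusted p = 0.0257, limma; 4.32% of all rows passed), and the call was lost in 4 of 6 fits that left out 1 library: E17 Saline library 1 or 3, or P7 Saline library 1 or 2. In MIA offspring 0 of 9 passed by limma, against 2.39% of all rows, and 4 had an unadjusted p under 0.05, against 12.6% of all rows. There, 4 genes passed without library 2 of E17 MIA and 2 without library 3 of P7 MIA. From P20 to P60 CTRL, H2-Aa passed in Saline offspring (1.07 ± 0.30, adjusted p = 0.0469, limma; 3.51% of all rows passed). In MIA offspring, H2-Aa (1.14 ± 0.30, adjusted p = 0.0410) and H2-Ab1 (1.04 ± 0.28, adjusted p = 0.0446) passed by limma, against 2.6% of all rows. The Saline call was lost without any library but 1 (P20 Saline library 2, without which 3 genes passed), and both MIA calls were lost without any 1 of the 6 libraries, although the log2 differences of the called genes stayed between 0.83 and 1.34. These calls lie at the threshold: H2-Eb1, with differences of 1.04 and 1.21, missed it at adjusted p = 0.087 and 0.052 (limma). The libraries at P20 were all high in Xist and those of P60 CTRL mixed, and with log2 Xist as a covariate no member passed at this step, with H2-Aa at 1.26 in Saline and 1.33 in MIA offspring.

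Cd74, on chromosome 18, encodes the invariant chain. It was at 5.08, 6.49 and 5.38 TPM in E17 Saline, at 13.9, 12.8 and 12.4 at P7, at 13.3, 27.0 and 16.4 at P20, and at 53.4, 26.1 and 26.3 in Saline + CTRL. The P20 libraries overlapped those of P7, and the log2 difference at that step was 0.45 (95% interval −0.25 to 1.14, adjusted p = 0.322, limma) in Saline and 0.81 (0.12 to 1.51, adjusted p = 0.0636) in MIA offspring. Over all 30 libraries the correlation of its log2(TPM + 1) with that of H2-Aa was 0.961, a description over libraries that share their ages. The only Cd74 row in the table is the longer of its annotated transcripts, which has 1 exon of 192 bases that the shorter transcript lacks, and the row held an estimated 11 to 304 reads per library. How reads common to both transcripts were assigned is not given in the sources used here, so the level of this row is not compared with those of other genes.

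H2-DMa, the alpha chain of the peptide editor, had another course than the classical chains. It was at 58.7, 73.3 and 72.7 TPM in E17 Saline and at 59.7, 61.2 and 52.9 in P7 Saline, then at 129, 191 and 188 at P20 and 186, 150 and 203 in Saline + CTRL. Of its differences between ages in Saline and MIA offspring, only those from P7 to P20 passed (1.51 ± 0.18, adjusted p = 6.92e-07, and 1.65 ± 0.18, adjusted p = 1.81e-07, limma). At E17 it was the most abundant of the 8 genes other than Cd74 in every Saline and MIA library, and in the CTRL groups at P60 it was below H2-Aa and H2-Ab1 in every library. H2-DMb1, a beta chain that pairs with it, was at 24.2 to 32.9 TPM in E17 Saline, 36.1 to 41.0 at P7, 67.4 to 101 at P20 and 90.0 to 143 in Saline + CTRL. The second beta chain gene, H2-DMb2, was the least abundant of these 8 genes in 29 of 30 libraries, at 1.91 to 32.8 TPM, or an estimated 13 to 197 reads. It rose from 5.01, 2.70 and 3.52 TPM at P7 to 17.6, 14.9 and 24.4 at P20 in Saline offspring (2.07 ± 0.28, adjusted p = 4.58e-06, limma). In MIA offspring it rose from 5.86, 9.6 and 9.01 to 15.3, 15.7 and 19.7 TPM (0.99 ± 0.28, adjusted p = 0.00825), a call that was lost without library 1 of P7 MIA (0.79, adjusted p = 0.0554, limma). H2-DMb1 and H2-DMb2 lie next to each other and 440 of the 1365 windows of 40 bases, the read length, in the H2-DMb1 transcript also occur in H2-DMb2 (32.2%), so that reads could be split between them and their separate values are uncertain. Of the 1385 windows in the H2-DMb2 transcript, 536 (38.7%) also occur in other genes, of which there are 810 with H2-DMb1 included. The row of H2-DMb2 could therefore also take reads from genes other than H2-DMb1.

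H2-Oa and H2-Ob encode the alpha and beta chain of H2-DO. H2-Oa was at 23.8, 28.6 and 29.2 TPM in E17 Saline, 19.8, 19.6 and 20.9 at P7, 47.1, 66.0 and 49.1 at P20 and 57.0, 45.6 and 62.1 in Saline + CTRL. As for H2-DMa, there was a rise between P7 and P20 in Saline offspring (1.37 ± 0.25, adjusted p = 0.000177, limma) and no call at the others. H2-Ob was at 9.57 to 11.1 TPM in E17 Saline, 12.3 to 17.4 at P7, 25.9 to 38.5 at P20 and 39.7 to 54.6 in Saline + CTRL, and it rose from P7 to P20 (1.09 ± 0.21, adjusted p = 0.000224, limma). The TPM ratio of H2-Oa to H2-Ob was 2.48 to 2.66 in E17 Saline and 1.14 to 1.15 in Saline + CTRL. Of the 1088 exon bases of H2-Oa, 321 are overlapped by exons of BC051537 on the opposite strand, and the libraries carry no strand, although the row of BC051537 itself stood at 0.21 to 3.77 TPM.

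**Figure D2:**
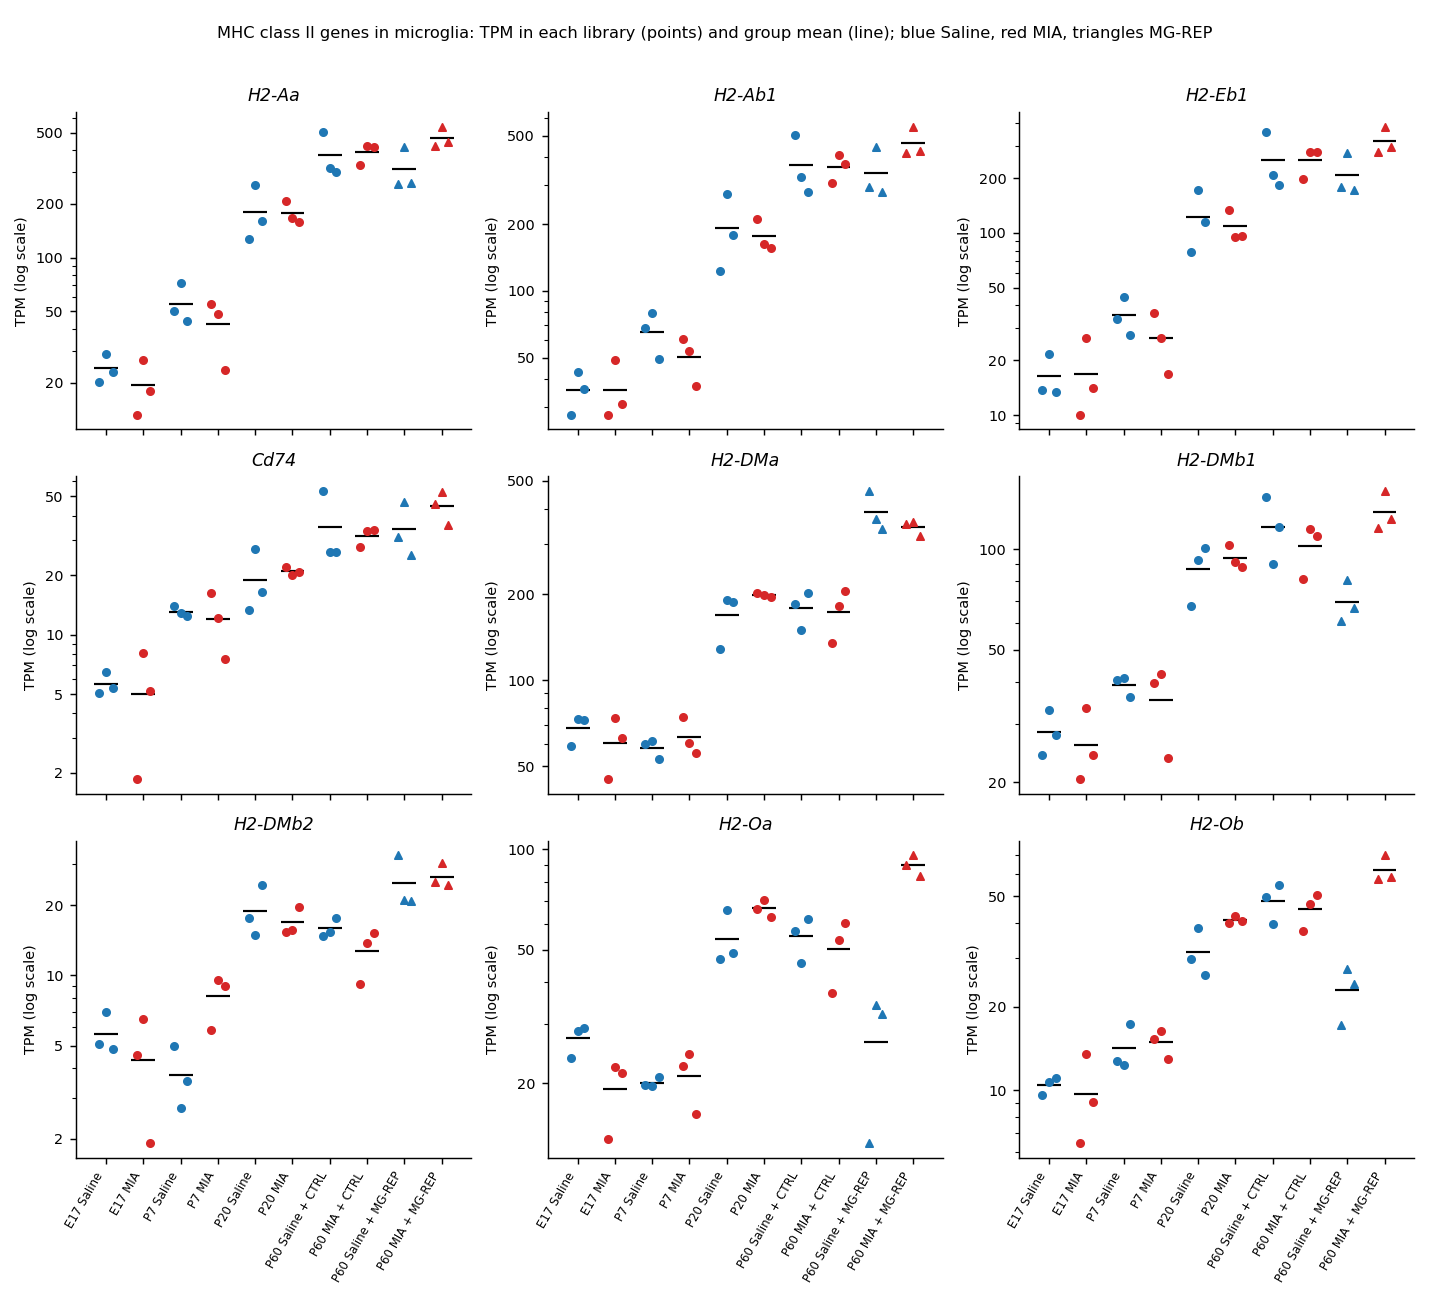
TPM of each class II gene (log axes) in the 3 libraries of each of the 10 groups, with a line at the group mean; blue is Saline, red MIA, and triangles are MG-REP. H2-Aa, H2-Ab1 and H2-Eb1 climb from age to age, H2-DMa, H2-Oa and H2-DMb2 step up between P7 and P20, and in Saline + MG-REP H2-DMa is high (338 to 461 TPM) while H2-Oa is low (13.2 to 34.3 TPM).

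Maternal immune activation alone gave no difference in these genes that passed the test. At E17, P7, P20 and in the P60 CTRL groups, 0 of 9 genes passed between MIA and Saline by limma, as did 0 of 14225 rows (0%). At an unadjusted p under 0.05 there were 0, 1, 0 and 0 of the 9 genes, beside 4.11%, 2.36%, 3.21% and 1.8% of all rows. The exception was H2-DMb2 at P7, at 5.86, 9.6 and 9.01 TPM in MIA and 5.01, 2.70 and 3.52 in Saline (0.95 ± 0.28, adjusted p = 1, limma), without overlap, as held upward for 2.31% of all rows. The intervals show what remained possible. For the classical chains at P60 CTRL the 95% intervals of the log2 difference were −0.53 to 0.70 (H2-Aa), −0.56 to 0.59 (H2-Ab1) and −0.64 to 0.74 (H2-Eb1), and for H2-DMa −0.42 to 0.32. At E17, all 9 genes had a difference below 0, between −0.51 (H2-Oa) and −0.01 (H2-Ab1), where the median over all rows was 0.10. The medians of the microglial, border macrophage and neutrophil marker lists in this comparison were −0.27, −0.40 and −0.64. Those of the monocyte and B cell lists were −0.36 and −0.26. Those of the dendritic cell, T or NK cell and proliferation lists were 0.02, 0 and −0.08. The microglial sum was 16514, 28001 and 20137 TPM in E17 MIA and 22671 to 28737 in E17 Saline. The part of these cells and of proliferation in the differences was not tested.

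Repopulation in Saline offspring went with opposite differences within the pathway. H2-DMa was at 461, 368 and 338 TPM in Saline + MG-REP and at 186, 150 and 203 in Saline + CTRL, and it was higher by 1.11 ± 0.18 (adjusted p = 4.04e-05, limma). H2-Oa was at 13.2, 34.3 and 32.1 TPM, against 57.0, 45.6 and 62.1 in Saline + CTRL. H2-Ob was at 17.2, 27.3 and 24.1 TPM, against 49.5, 39.7 and 54.6. The MG-REP libraries lay above all CTRL libraries for the DM alpha chain and below all of them for both DO chains, which held for 14.9% and 23.5% of all rows. H2-Oa was lower by 1.12 ± 0.25 on the log2 scale (adjusted p = 0.00155, limma) and H2-Ob by 1.05 ± 0.21 (adjusted p = 0.000402, limma). H2-DMb1, at 61.0, 80.6 and 66.7 TPM against 143, 90.0 and 116, was also lower, by 0.72 ± 0.21 (adjusted p = 0.0124, limma). H2-DMb2 was at 32.8, 21.1 and 20.9 TPM, against 14.8, 15.4 and 17.6, a difference of 0.59 ± 0.28 that did not pass (adjusted p = 0.131, limma). In all, 1 gene was higher and 3 were lower of 9, where 11.9% of all rows were higher and 14.9% lower.

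The classical chains and Cd74 did not pass the test in this comparison. H2-Aa was at 259, 418 and 261 TPM in Saline + MG-REP, within and below the range of the CTRL libraries, and its difference was −0.26 (95% interval −0.87 to 0.36, adjusted p = 0.581, limma). The differences of H2-Ab1 (−0.11, interval −0.68 to 0.47), H2-Eb1 (−0.23, −0.92 to 0.46) and Cd74 (0.00, −0.69 to 0.70) did not pass either. These intervals leave room for a change of up to 0.92 on the log2 scale downward and 0.70 upward.

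The calls of H2-DMa, H2-Oa and H2-Ob held without any 1 of the 6 libraries. Without library 1 of Saline + MG-REP, which had the lowest H2-Oa and the highest H2-DMa, the differences were −0.70 for H2-Oa (adjusted p = 0.0199, limma), −0.86 for H2-Ob (adjusted p = 0.00597, limma) and 0.98 for H2-DMa (adjusted p = 0.000683, limma). The call of H2-DMb1 was lost without that library (−0.64, adjusted p = 0.0683) or without library 1 of Saline + CTRL (−0.56, adjusted p = 0.0881, limma). With log2 Xist as a covariate, H2-DMa, H2-Oa, H2-Ob and H2-DMb1 stood at 1.25, −0.98, −0.96 and −0.77 and passed. In a fit of these 6 libraries alone, H2-Oa did not pass (adjusted p = 0.087, limma) and neither did H2-DMb1 (adjusted p = 0.056, limma).

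In MIA offspring, H2-DMa was also higher after repopulation, and the DO genes were not lower. It was at 352, 359 and 320 TPM in MIA + MG-REP and at 135, 182 and 205 in MIA + CTRL (0.99 ± 0.18, adjusted p = 0.00452, limma), 1 of 9 genes, where 0.555% of all rows passed. H2-Oa was at 90.0, 96.2 and 83.5 TPM, above the 37.3, 53.5 and 60.2 of MIA + CTRL, with a difference of 0.85 ± 0.25 that did not pass (adjusted p = 0.207, limma). H2-DMb2 was at 25.03, 30.2 and 24.4 TPM, against 9.20, 13.8 and 15.2 (1.03 ± 0.28, adjusted p = 0.137, limma). All 9 genes had a difference above 0, and for 7 of them the MG-REP libraries lay above all CTRL libraries, which held for 6.74% of all rows. Those 7 were Cd74, H2-Ab1, H2-DMa, H2-DMb1, H2-DMb2, H2-Oa and H2-Ob. In a fit of these 6 libraries alone, H2-DMa did not pass (adjusted p = 0.0652, limma).

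The change of the DO genes after repopulation differed between Saline and MIA offspring, and no such difference was found for H2-DMa. The difference of both effects, tested as an interaction, was 1.97 ± 0.36 for H2-Oa (adjusted p = 0.000571, limma), 1.51 ± 0.29 for H2-Ob (adjusted p = 0.00104, limma) and 1.07 ± 0.30 for H2-DMb1 (adjusted p = 0.0206, limma), with 10.5% of all rows passing. For H2-DMa it was −0.12, with a 95% interval of −0.64 to 0.40 (adjusted p = 0.893, limma). For the classical chains it lay between 0.47 and 0.58, with intervals from −0.40 to 1.55, and did not pass. Set side by side, MIA + MG-REP was higher than Saline + MG-REP in H2-Oa by 1.83 ± 0.25 (adjusted p = 8.18e-06), in H2-Ob by 1.42 ± 0.21 (adjusted p = 1.59e-05) and in H2-DMb1 by 0.89 ± 0.21 (adjusted p = 0.0033, limma), 3 of 9 genes where 10.9% of all rows were higher. These comparisons share their MG-REP libraries and are not independent of each other. All libraries of both MG-REP groups were high in Xist, at 159 to 174 TPM. The interaction calls of H2-Oa and H2-Ob held without any 1 of the 12 libraries, and that of H2-DMb1 was lost without library 1 of Saline + CTRL, MIA + CTRL or Saline + MG-REP, or library 2 of MIA + MG-REP, at adjusted p from 0.0659 to 0.072 (limma).

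**Figure D3:**
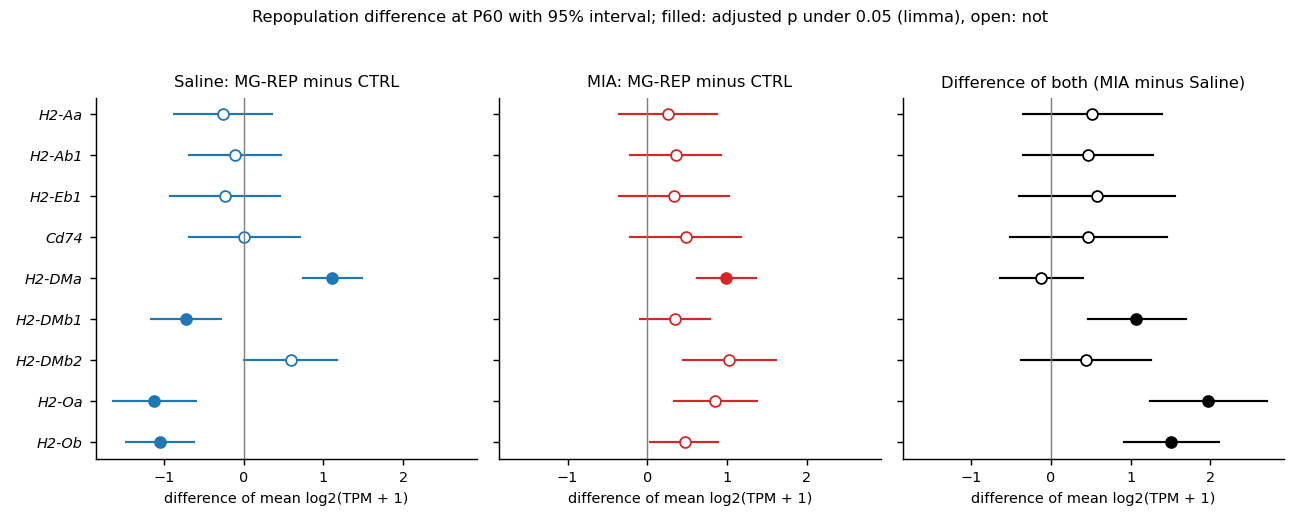
Difference of mean log2(TPM + 1) between MG-REP and CTRL in Saline (blue) and MIA offspring (red), and the difference of both (black), with 95% intervals; filled points passed at an adjusted p under 0.05 by limma. H2-DMa lies near 1 in both kinds of offspring, and H2-Oa and H2-Ob lie below −1 in Saline and above 0 in MIA offspring.

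Ratios within a library do not depend on how libraries are scaled. The TPM ratio of H2-DMa to H2-Oa, the editor's alpha chain to its inhibitor's, was 34.9, 10.7 and 10.5 in the 3 Saline + MG-REP libraries. In the other 27 libraries, of every age, it lay between 2.46 and 3.91. The MIA + MG-REP libraries, at 3.91, 3.73 and 3.83, included the highest of these 27, and the CTRL libraries were at 3.25, 3.28 and 3.27 in Saline and 3.63, 3.40 and 3.41 in MIA offspring. Since library 1 of Saline + MG-REP alone reached 34.9, the group's mean of 18.7 rests on it, and without it the others were still at 10.5 and 10.7. This pair joins a gene called higher in Saline + MG-REP with one called lower, so that its ratio is a description. The beta chains did not stand apart in this way. The ratio of H2-DMb1 to H2-Ob was 3.55, 2.95 and 2.77 in Saline + MG-REP. Elsewhere it ran from 1.83 in a P7 MIA library to 3.89 in a P20 Saline library. The ratio of H2-DMa to H2-DMb1 was 7.56, 4.57 and 5.06 in Saline + MG-REP. The MIA + MG-REP libraries were at 3.04, 2.40 and 2.59, and the CTRL groups at 1.29 to 1.87. At E17 the ratio was 2.23 to 2.62 in Saline and 2.20 to 2.60 in MIA offspring, near that of MIA + MG-REP. H2-DMa was called higher and H2-DMb1 lower in Saline + MG-REP, so that this ratio is a description as well. The ratio of H2-DMb1 to H2-DMb2 was 1.86, 3.81 and 3.19 in Saline + MG-REP and between 2.63 and 15.2 in the others, with the reservation on shared reads above.

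**Figure D4:**
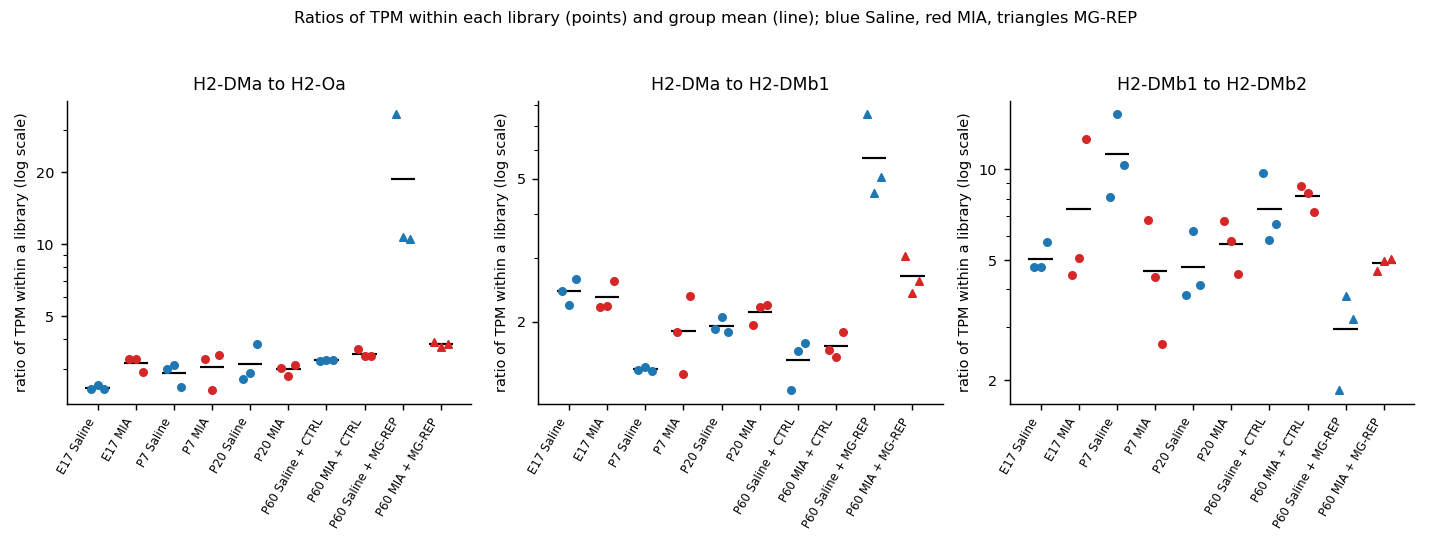
Ratios of TPM within a library (log axes) for H2-DMa to H2-Oa, H2-DMa to H2-DMb1 and H2-DMb1 to H2-DMb2, with a line at the group mean; blue is Saline, red MIA, and triangles are MG-REP. The 3 Saline + MG-REP libraries lie at 10.5 to 34.9 for H2-DMa to H2-Oa, and the other 27 at 2.46 to 3.91.

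Regulators of the pathway were called upward in 4 of the 6 comparisons between ages and mostly downward in Saline + MG-REP. Of 17 genes that act on Ciita or on the promoter complex, 12 had rows (13 rows). From P7 to P20, 4 of 13 rows rose and 0 fell in Saline offspring, where 16.1% of all rows rose, among them Ifngr1, a chain of the interferon gamma receptor (804 against 493 TPM, 0.71, adjusted p = 0.0011, limma), and Nfya, a subunit of NF-Y (4.06 against 2.46 TPM, 0.67, adjusted p = 0.0324, limma). In MIA offspring 4 rose and 0 fell, where 13.1% of all rows rose. From E17 to P7, 3 rose in Saline and 2 in MIA offspring, where 4.32% and 2.39% of all rows passed, and Rfx5, a subunit of the X box complex, was among them in both (35.4 against 25.5 TPM, 0.45, adjusted p = 0.0176, and 35.4 against 25.4, 0.46, adjusted p = 0.0246, limma). In Saline + MG-REP, 1 row was higher and 5 were lower than in Saline + CTRL, beside 11.9% and 14.9% of all rows, and the largest difference was that of Irf4, a factor of B cells and dendritic cells (4.03 against 13.9 TPM, −1.58, adjusted p = 1.23e-05, limma). Between MIA + MG-REP and Saline + MG-REP, 3 rows were higher and 1 was lower, beside 1553 and 1571 of all 14225 rows. Irf4 was also the 1 row of this list with a called interaction (1.06, adjusted p = 0.0377, limma). Between MG-REP and CTRL in MIA offspring 0 of 13 rows passed by limma, where only 0.555% of all rows passed. The median of the list there was 0.03, beside −0.08 over all rows. Of 4 further class II chains, H2-Ea, its pseudogene, H2-Eb2 and H2-Ab2, 0 had a row.

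The endosomal proteases Ctsb and Ctsl fell between P7 and P20 in Saline offspring. Ctss, a protease that cuts the invariant chain in antigen presenting cells, had no row. Of 9 rows of processing and turnover genes, 0 rose and 3 fell in Saline offspring, where 16.1% of all rows rose and 20.1% fell. In MIA offspring 2 rose and 4 fell, where 13.1% of all 14225 rows rose and 3205 rows fell. Ctsb went from 4700 to 1960 TPM (−1.27, adjusted p = 6.6e-06) and Ctsl from 1900 to 826 TPM (−1.22, adjusted p = 0.000234, limma) in Saline offspring. Marchf1, a ubiquitin ligase that removes class II from the surface, rose in MIA offspring (4.6 against 1.74 TPM, 1.03, adjusted p = 0.00318, limma). In Saline + MG-REP 2 rows were higher and 1 lower than in Saline + CTRL, beside 11.9% and 14.9% of all rows. Ifi30, a thiol reductase of the endosome that interferon gamma induces, was at 1770 against 286 TPM (2.59, adjusted p = 6.84e-08, limma), and Ctsl at 333 against 626 (−0.95, adjusted p = 0.00311, limma). Both had a called interaction, of −1.73 (adjusted p = 0.00333) and 1.11 (adjusted p = 0.0298, limma). Of the costimulators and checkpoint ligands of antigen presenting cells, 4 of 8 had rows, and in Saline + MG-REP Cd274 (1.09, adjusted p = 0.0172) and Icosl (0.77, adjusted p = 0.000962) were higher and Cd80 was lower (−0.78, adjusted p = 0.00063, limma). In MIA offspring 0 of 4 passed by limma between MG-REP and CTRL, where only 0.555% of all rows passed. The median of these 4 there was 0.45, beside −0.08 over all rows.

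Interferon-responsive genes, some of which are also on the list of regulators, were higher in Saline + MG-REP. Of 17 rows of 16 such genes, 10 were higher and 0 lower than in Saline + CTRL, where 11.9% of all rows were higher, with a median of 1.25 beside −0.14 over all rows. Cxcl10, a chemokine, was at 1030 against 51.5 TPM (4.26, adjusted p = 3.84e-10, limma), and Ifit2, an antiviral effector, at 107 against 16 (2.47, adjusted p = 1.28e-05, limma). In MIA offspring 0 of 17 passed between MG-REP and CTRL by limma, where only 0.555% of all rows passed. The median of the list there was 0.47, beside −0.08 over all rows, so that the count does not show an absent difference. The interaction was called for 3 rows, all downward, beside 10.5% of all rows in either direction. Among the 3 was Cxcl10 (−3.12, adjusted p = 4.47e-05, limma). From P7 to P20, 4 of 17 rows rose and 1 fell in Saline and 11 rose and 2 fell in MIA offspring, the falls including Cxcl10 in both (−1.46, adjusted p = 0.000992, and −1.49, adjusted p = 0.000747, limma). Of all 14225 rows, 16.1% rose and 20.1% fell at this step in Saline offspring. In MIA offspring 13.1% rose and 3205 rows fell.

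Markers of other cells that carry class II were measured beside these changes. For dendritic cells, 5 of 8 genes had rows, and their summed TPM was 51.9 to 57.7 in E17 Saline, 47.2 to 57.0 in P7 Saline, 63.7 to 89.6 in P20 Saline and 73.2 to 91.7 in Saline + CTRL. Most of this sum was Batf3, and Cd209a, a lectin of dendritic cells and some macrophages, rose from 2.48 to 13 TPM between P7 and P20 in Saline offspring (2.23, adjusted p = 5.95e-05, limma). In 7 of 10 groups the library highest in the classical chains was also the highest in Cd209a. Batf3 was highest in another library than the chains in E17 Saline, P7 MIA, P20 MIA, MIA + CTRL and MIA + MG-REP. Flt3 was so in P7 Saline, P7 MIA, P20 Saline, P20 MIA and Saline + MG-REP. Xcr1 and Zbtb46 were not set against the chains in this way. Between P7 Saline and P20 Saline, mean Batf3 went from 37.9 to 51.2 TPM, Flt3 from 1.31 to 3.11, Xcr1 from 0.403 to 0.52 and Zbtb46 from 11.3 to 9.15. Xcr1, a marker of conventional dendritic cells, had a mean of 0.203 to 0.57 TPM over the 10 groups. Of 8 B cell genes, 3 had rows, with a sum of 4.95 to 8.55 TPM in E17 Saline, 6.29 to 7.09 in P7 Saline, 2.95 to 4.58 in P20 Saline and 3.26 to 5.04 in Saline + CTRL. The 7 border macrophage genes summed to 2531 to 2793 TPM in P7 Saline, 1255 to 1510 in P20 Saline and 889 to 1172 in Saline + CTRL. The 3 T and NK cell genes with rows summed to 0.26 to 1.99 TPM in E17 Saline, 0.32 to 0.53 in P7 Saline, 0.72 to 2.74 in P20 Saline and 3.91 to 18.2 in Saline + CTRL, and the 8 microglial genes to 22671 to 28737, 23041 to 28782, 36612 to 45565 and 35859 to 51828. The part of these cells in the age differences was not tested.

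The same lists were measured in the MG-REP groups. Cd209a was lower in Saline + MG-REP than in Saline + CTRL (6.87 against 17.9 TPM, −1.29, adjusted p = 0.0115, limma), as was the B cell gene Cd79b (0.0633 against 2 TPM, −1.46, adjusted p = 7.61e-05, limma). The other dendritic cell genes did not pass: Batf3 was at 60.3 against 52.2 TPM, Flt3 at 4.77 against 2.46, Xcr1 at 0.373 against 0.283 and Zbtb46 at 4.33 against 7.62. The dendritic cell sum was 62.2 to 87.7 TPM, against 73.2 to 91.7, and the B cell sum 0.66 to 2.19, against 3.26 to 5.04. In MIA + MG-REP the B cell sum was 1.63 to 2.64 TPM, below the 2.92 to 4.22 of MIA + CTRL. The border macrophage sum was 1148 to 2168 TPM in Saline + MG-REP and 653 to 839 in MIA + MG-REP. Of its genes, Pf4 was higher in Saline + MG-REP than in Saline + CTRL (577 against 137 TPM, 1.97, adjusted p = 0.0001, limma) and Cd163 lower (0.02 against 0.54 TPM, −0.58, adjusted p = 0.00859, limma), whereas Mrc1 (186 against 195 TPM) and Lyve1 (30.9 against 44.8) did not pass. In the same groups, Saline + MG-REP first, the monocyte sum was 63.5 to 282 and 48.2 to 72.1 TPM, and the neutrophil sum 34.9 to 5711 and 542 to 984. In Saline + CTRL these sums were 53.4 to 79.5 and 812 to 943 TPM. Of 5 monocyte rows, 1 was called higher and 1 lower in Saline + MG-REP than in Saline + CTRL. Ccr2 was at 60.6, 64.1 and 49.9 TPM, against 18.1, 19.6 and 18.7. Plac8 was at 2.06, 28.55 and 3.15 TPM, against 13.3, 23.3 and 37.35. The T and NK cell sum was 1.01 to 8.48 TPM in Saline + MG-REP and at most 18.2 in any library. Proliferation genes were called in 6 of 6 rows, higher in Saline + MG-REP than in Saline + CTRL, and 7 of 8 microglial marker rows were lower. Of all rows, 11.9% were higher and 14.9% lower in this comparison. The part of proliferation, of the lower microglial markers and of other myeloid cells in the differences of H2-DMa, H2-Oa, H2-Ob and H2-DMb1 was not tested.

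**Figure D5:**
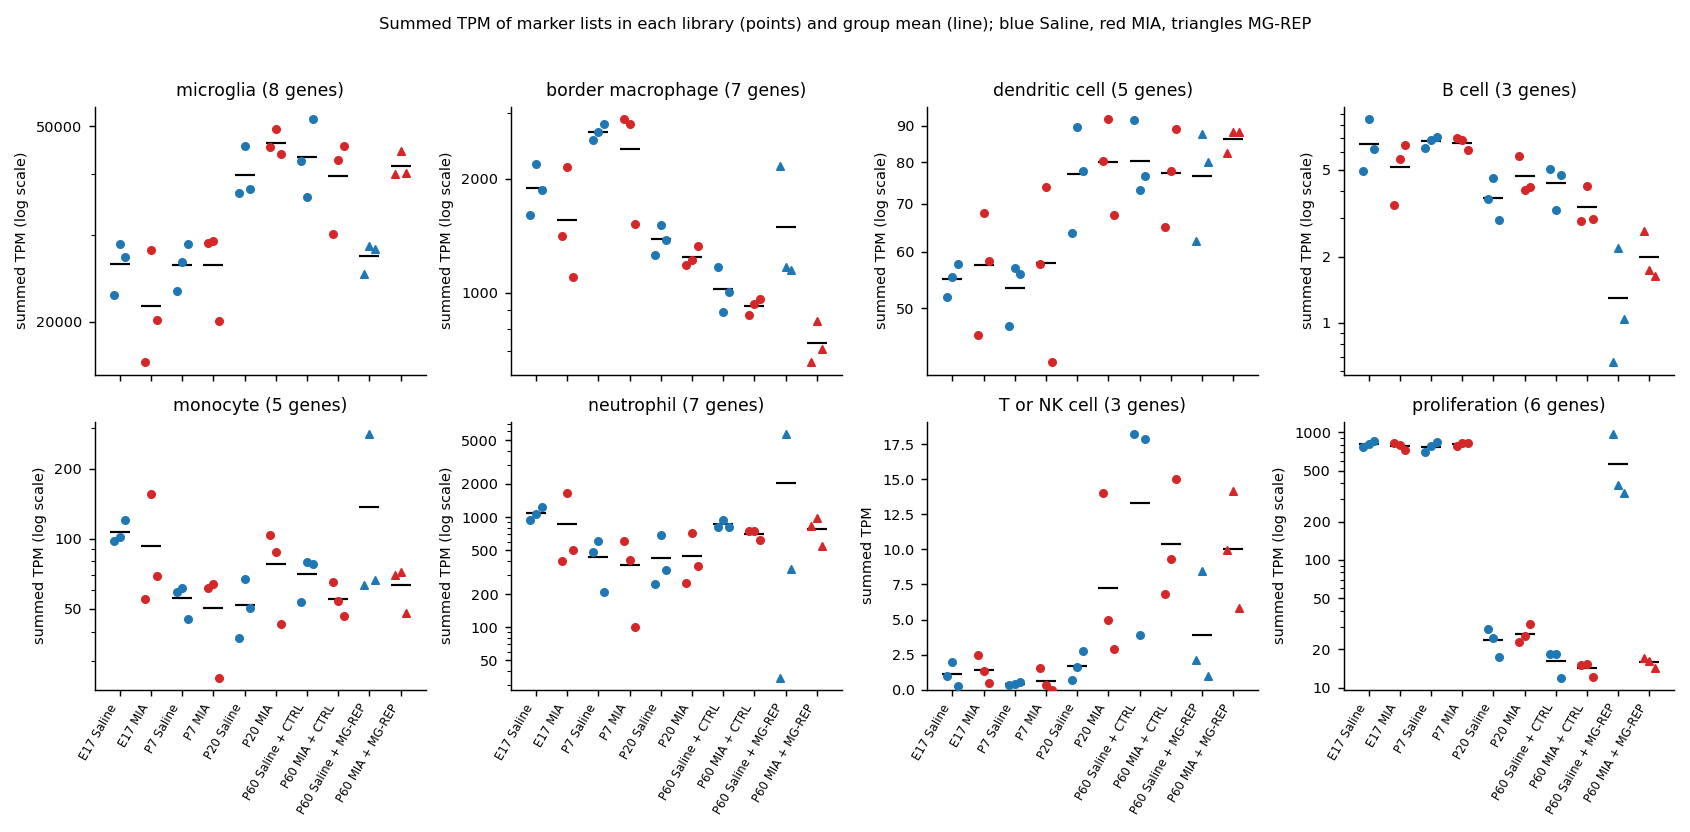
Summed TPM of marker lists (log axes, except T or NK cell, which starts at 0) in the 3 libraries of each group, with a line at the group mean; blue is Saline, red MIA, and triangles are MG-REP. The proliferation sum is 335 to 974 TPM in Saline + MG-REP and at most 18.5 in the other P60 groups, and the B cell sum is at most 8.55 TPM in all libraries.

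The rows most like the classical chains and Cd74 over the 30 libraries were, by the correlation with the mean z-score of these 4 genes, Tnfsf12 (0.974), Pfkfb4 (0.972), Mtus1 (0.956), Tap2 (0.956), Calhm2 (0.955), H2-T23 (0.952), Padi2 (0.949), Lrrc3 (0.949), Gngt2 (0.946) and Ddn (0.945). This is a description over libraries that share their ages, groups and 1 normalization. Tap2, a subunit of the peptide transporter of class I presentation encoded between the class II genes, was at 74.4 TPM in E17 Saline, 103 at P7, 130 at P20 and 174 in Saline + CTRL. H2-T23, a nonclassical class I gene, was at 73.6, 85.9, 161 and 256 TPM. All 10 rows belonged to the authors' co-expression module AM (adult microglia), as did 8 of the 9 class II genes, and H2-DMa was in the module REP-AM (repopulated adult microglia). Of all rows, 23% were in AM. Among the class II genes themselves the correlations with H2-Aa were 0.996 for H2-Eb1, 0.994 for H2-Ab1, 0.959 for H2-DMb1, 0.919 for H2-Ob, 0.889 for H2-DMa, 0.814 for H2-DMb2 and 0.748 for H2-Oa.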

How the data were processed

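CD11B bead-isolated microglia were measured in 30 libraries, 3 in each of 10 groups. Non-stranded poly(A) libraries were sequenced as single 40-base reads, which the authors aligned to mm10 with Rsubread, counted with featureCounts on a UCSC annotation and filtered at a CPM of 2 in at least 3 libraries. The deposited values are TPM for 14225 rows, computed by the authors, and their formula is not given in the sources used here. Being TPM, they were not fitted with a count model. Reads were estimated from TPM steps and RefSeq lengths (14005 rows).

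All groups entered 1 fit in limma 3.58.1 (R 4.3.3) of log2(TPM + 1), with a mean-variance trend and Benjamini-Hochberg adjustment at 0.05 over all rows. The script was tested on simulated data. Fold changes are on the log2(TPM + 1) scale and understate those of low genes. The labels do not say whether libraries of a group came from different litters, so p-values measure the spread between these samples. Same-numbered libraries were checked for pairing by the correlation of their deviations from group means: 12 of 27 pairs were over 0.1, and all 3 only between P20 Saline and P20 MIA. The alternatives were quantile normalization, median-ratio scaling, a pseudocount of 0.1, a filter at a mean TPM of 1, a replicate block, the compared groups alone, an Xist covariate, no trend, and each library left out.

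All measured genes of the list were named, with up to 4 called genes per further list and comparison and the 10 rows most like the classical chains. The genes and lists were chosen with earlier results of these data known. Sequences, starts and transcripts came from RefSeq (GRCm38.p6) and GENCODE M21. Python 3.11.15 and matplotlib 3.10.9 served for the remaining steps.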

Additional observations from a re-analysis of the deposited data

Results flagged for a closer look

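The effect of repopulation on 3 genes differed between Saline and MIA offspring by the interaction test in limma. The difference of both effects, MIA minus Saline, was 1.97 for H2-Oa, 1.51 for H2-Ob and 1.07 for H2-DMb1 on the log2 scale. In Saline offspring all 3 were lower in MG-REP than in CTRL, and in MIA offspring their differences were 0.85, 0.47 and 0.35, none of which passed by itself. Groups of 3 libraries are too small for a test of single outlying libraries.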

How the results depend on the processing

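Of the called differences of single class II genes, none reversed under the alternatives run, and 226 of 248 values under other settings and 176 of 204 with 1 library left out still passed. Differences that were not called have no value under the alternatives. The counts of called genes changed most at the steps before P7 and after P20. From E17 to P7 in Saline offspring, the 1 call became 0 under median-ratio scaling and quantile normalization and 2 with the replicate block or with the compared groups alone (0 to 2 with 1 library left out). From P20 to P60 CTRL in Saline offspring, 1 became 0 with a pseudocount of 0.1, both scalings, Xist, no trend or the compared groups alone and 2 with the block (0 to 3). In MIA offspring, 2 became 0 under median-ratio scaling, Xist or no trend and 1 under quantile normalization, and 3 with the block or the compared groups alone (0 to 0). From E17 to P7 in MIA offspring, 0 became 2 with the block (0 to 4). With the compared groups alone, MG-REP against CTRL gave 2 instead of 4 calls in Saline and 0 instead of 1 in MIA offspring. Under median-ratio scaling or quantile normalization, H2-DMb1 lost its call in Saline MG-REP against CTRL (adjusted p = 0.106 and 0.0694, limma) and in the interaction (0.0961 and 0.0766). Outside P20, the correlations of same-numbered libraries ran from −0.531 to 0.656, and the labels do not say whether equal numbers mark a pair. The block changed no count of MIA against Saline or of MG-REP.

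Over all rows, MG-REP against CTRL in Saline offspring gave 1687 higher and 2118 lower rows, against 2076 and 1532 under median-ratio scaling and 1749 and 1677 under quantile normalization, and the median of all rows moved from −0.14 to −0.05. MIA against Saline in MG-REP gave 1553 and 1571, against 1235 and 1871. Cd74 and H2-DMb2, at as few as 11 and 13 estimated reads, are limited most by depth.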
